A study of Mus musculus with 8 samples.

Results

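Chemokines and their receptors were described in cortical bone of mice labelled as Ripk4 knockouts. The members were the rows of the deposited gene table whose symbols begin with Ccl, Cxcl, Cx3c, Xcl1 or Xcr1, or are Ccr or Cxcr followed by a number, without Cxcl12. This rule took 58 of the 55401 genes in the table, 40 of them ligands or copies of ligand genes and 18 of them receptors. The KO group held 4 libraries from UbcCre/ERT2 Ripk4fl/fl mice, and the control group held 4 libraries from Ripk4fl/fl mice, whose titles call them WT. Both groups therefore carry the floxed Ripk4 alleles, both have the C57BL/6J background, and they differ by the label of the Cre transgene, a recombinase under the broadly active ubiquitin C promoter that works once a drug binds its modified oestrogen receptor. A figure of 4 weeks stands in the labels, which could be the age of the mice or the time since induction, and neither a drug nor a vehicle is named in the sources used here. Nothing states that the libraries came from separate animals, so p-values measure the spread between these libraries, which may be technical.

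Chemokines are small secreted proteins that bind glycosaminoglycans on cells and matrix and guide leukocytes along their gradients. They act through receptors that span the membrane and couple to inhibitory G proteins, and most ligands share receptors with others of their family. In bone and marrow the best known of these signals hold haematopoietic cells in their niches through Cxcr4, release neutrophils through Cxcr2, draw monocytes and osteoclast precursors through Ccr1 and Ccr2, and, once interferon is sensed, draw T and NK cells through Cxcr3.

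Total counts ran from 61092688 to 66774693 per library. Ripk4 had 0, 12, 0 and 0 counts in KO libraries 1 to 4, against 10, 4, 0 and 4 counts in control libraries 1 to 4, none above the 12 counts (about 3 fragments) treated as the limit of measurement, so its level does not check the labels (two-sided exact permutation test, p = 0.657). All 8 osteoblast and osteocyte markers were measured in both groups and summed to 391 to 734 FPKM (fragments scaled to gene length and library size) in KO libraries, against 2387 to 4777 FPKM in controls. Neutrophil markers were also high and summed to 59040 to 71040 FPKM in KO libraries, against 29960 to 42960 FPKM in controls. KO library 4 was the highest or lowest of the 8 libraries for 46.1% of all tested genes, and values that rest on it are given with and without it. Mitochondrial transcripts took 5.56% to 6.09% of counts in KO libraries, against 6.17% to 16.1% in controls, and their part in the results was not tested.

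Of the 58 members, 50 exceeded 12 counts in at least 1 library. Ccl20, Ccl26 and Cxcl15 had no count in any library, and Ccl1, Ccl24, Cxcl11, Cxcl17 and Ccr8 had at most 12. The low-count filter left 45 members for the test across all genes. The 5 members over 12 counts that did not pass it were Ccl17, Ccl19-ps1, Ccl21b, Ccl21d and Ccl27b. Reads of near-identical copies (Ccl21a, Ccl21b and Ccl21d, Ccl19 and its pseudogenes, Ccl27a and Ccl27b) may have been divided among them, so their values are uncertain.

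A few genes made up most of the transcript of the members, a sum that leaves out Ppbp, Pf4 and Cxcl12, which the naming rule does not take. Ccl6 and Cxcl14 together held 69.0% to 80.8% of the summed ligand FPKM in KO libraries, against 64.0% to 66.8% in controls. Cxcr2, Cxcr4 and Ccr1 together held 92.1% to 94.6% of the summed receptor FPKM in KO libraries, against 89.0% to 92.1% in controls. The receptors summed to 265.1 to 501.9 FPKM in KO libraries, against 169.1 to 235.9 FPKM in controls, with no overlap. The ligands summed to 284.7 to 680.9 FPKM in KO libraries, against 278.4 to 329.9 FPKM in controls, and those groups overlapped.

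**Figure D1:**
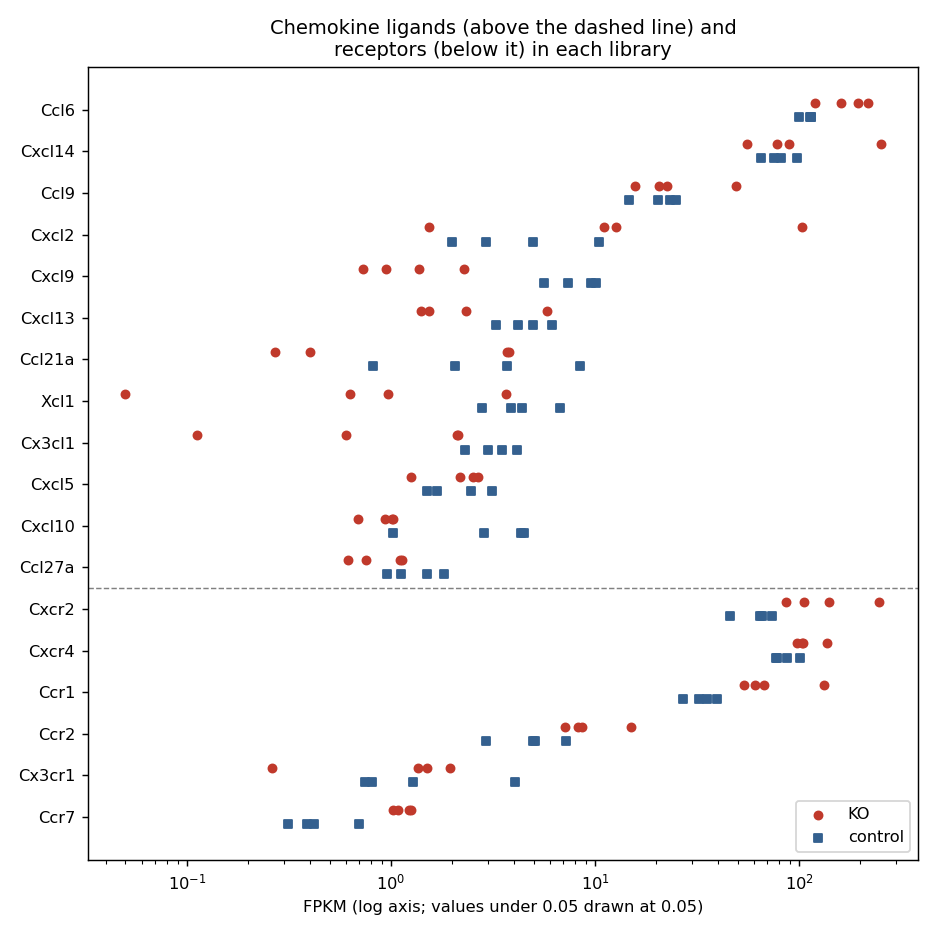
FPKM on a log axis for the 18 named members, 1 point per library, KO red and control blue, with Xcl1 in KO library 4 (0 counts) drawn at 0.05 FPKM, the leftmost point. Ccl6, Cxcl14, Cxcr2, Cxcr4 and Ccr1 have the highest group means in both groups. In KO library 4, Ccl9 reaches 49.0 FPKM, above every control value of Ccr1, and Cxcl2 reaches 103.2 FPKM. Cxcl9 separates the groups, with every KO library below every control library.

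In edgeR's quasi-likelihood test over 20152 genes, 4 of the 45 tested members (8.89%) passed an adjusted p of 0.05, against 10.3% of all genes tested. The receptors Ccr1 and Ccr7 were higher in KO, against 5.31% of all genes in that direction, and the ligands Cxcl9 and Cxcl10 were lower, against 5.03%. The share of members called was thus not above that of the table. At an unadjusted p under 0.05 stood 13 members (28.9%), 9 higher and 4 lower in KO, against 28.1% of all genes. FPKM values of the 2 groups did not overlap in 10 members (22.2%), against 20.7% of all genes. Of those 10, 6 were higher in KO, against 9.21% of all genes, and 4 were lower, against 11.5%. The median log2 fold change, KO over control, was -0.35 over 28 ligands and -0.29 over 17 receptors, against -0.02 over all genes. Of the tested members, 17 were fitted higher and 28 lower in KO, against 9755 higher and 10397 lower among all genes tested.

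**Figure D2:**
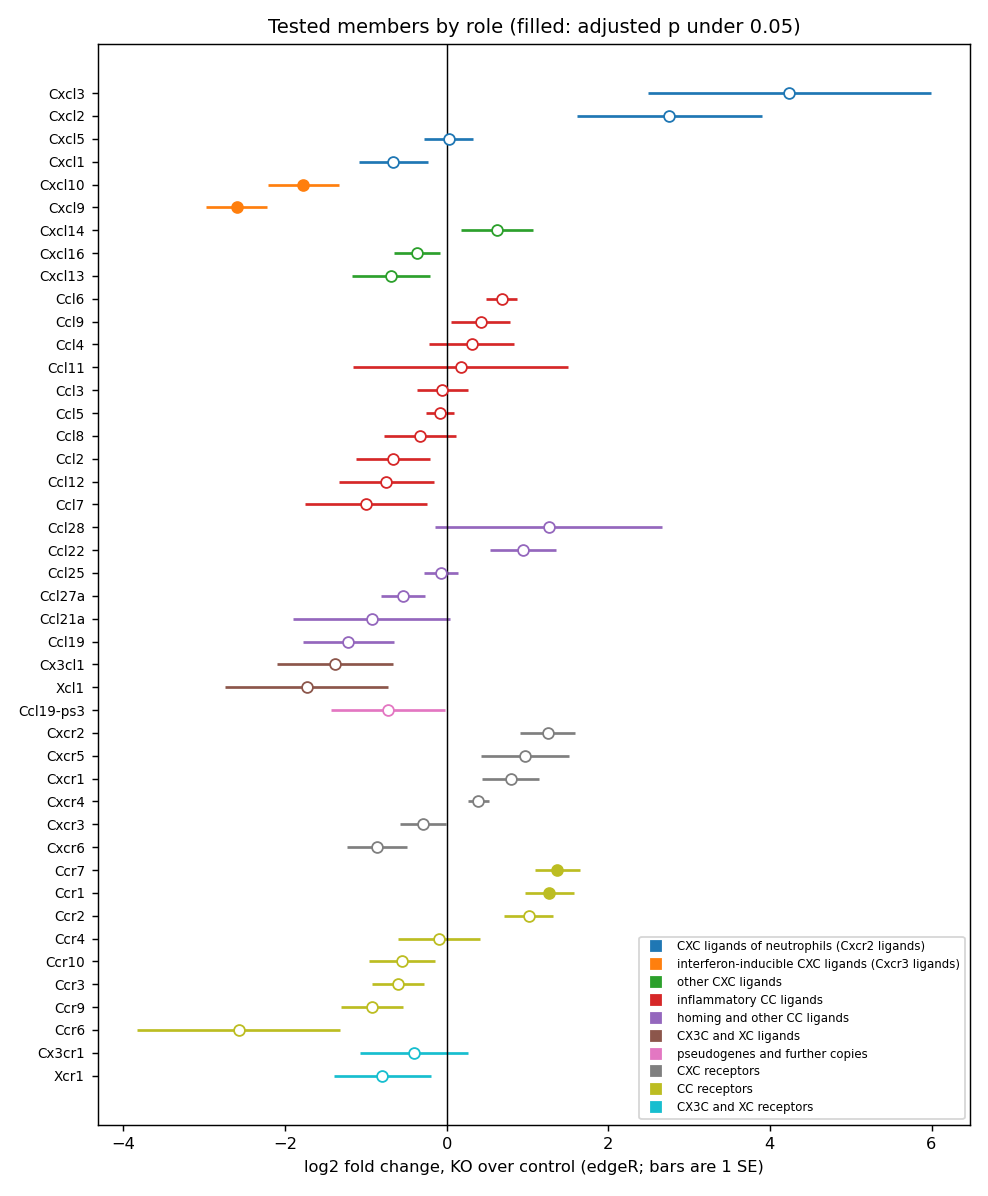
Log2 fold changes, KO over control, from edgeR for 44 tested members, with bars of 1 standard error and filled symbols where the adjusted p is under 0.05. Ccr7 and Ccr1 are the filled symbols to the right of 0, and Cxcl9 and Cxcl10 are those to the left.

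Both measurable interferon-inducible ligands of Cxcr3, Cxcl9 and Cxcl10, fell in KO. Cxcl9, a ligand that draws activated T and NK cells and is known as a target of interferon gamma, lies on chromosome 5 at 92321347 to 92328079 on the minus strand (GRCm38). It had 2.29, 1.37, 0.950 and 0.726 FPKM in KO libraries 1 to 4, against 9.58, 7.41, 10.1 and 5.61 FPKM in control libraries 1 to 4. Every KO library was below every control library. Means were 1.33 ± 0.691 FPKM in KO and 8.17 ± 2.06 FPKM in control (SD, n = 4 each), and Cxcl9 fell by 2.60 ± 0.38 (SE) on the log2 scale (edgeR adjusted p = 0.00889), a KO level 0.165 of the control level with a 95% interval of 0.0913 to 0.299. The call held with any 1 library left out (edgeR adjusted p at most 0.0349) and was lost without control libraries 3 and 4 together (adjusted p = 0.0862).

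Cxcl10, which shares the receptor Cxcr3 and is induced by type I and type II interferons, lies beside it at 92346638 to 92348882. Its level was 1.02, 0.931, 0.686 and 1.01 FPKM in KO libraries 1 to 4, against 2.87, 4.51, 4.34 and 1.03 FPKM in control libraries 1 to 4. Control library 4 sat at the level of the KO libraries, and the other 3 controls were well above them. Cxcl10 fell by 1.78 ± 0.44 on the log2 scale (edgeR adjusted p = 0.0392), with means of 0.912 ± 0.155 FPKM in KO and 3.19 ± 1.62 FPKM in control (SD, n = 4 each). Leaving out any single library other than control 4 ended the call (edgeR adjusted p up to 0.102), as did limma on log2 FPKM with a pseudocount of 0.5 (adjusted p = 0.0591). The gene's exons overlap 133 bases of Art3 on the opposite strand, and Art3 had a log2 fold change of -0.56 (edgeR adjusted p = 0.547). Cxcl11, the third ligand of Cxcr3, is a member at the limit of measurement.

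The promoters of these neighbours are shown because both genes fell, as RefSeq places them on GRCm38.p6 (250 bases before to 50 after the start, minus strand, written in the gene's direction). Capitals mark matches, on either strand, to the interferon-stimulated response element (TTTC, any 2 bases, TTTC) and to the kappaB consensus, known binding motifs of interferon-activated and NF-kappaB factors. The Cxcl9 window is chr5:92328030-92328329 and the Cxcl10 window is chr5:92348840-92349139.
Cxcl9: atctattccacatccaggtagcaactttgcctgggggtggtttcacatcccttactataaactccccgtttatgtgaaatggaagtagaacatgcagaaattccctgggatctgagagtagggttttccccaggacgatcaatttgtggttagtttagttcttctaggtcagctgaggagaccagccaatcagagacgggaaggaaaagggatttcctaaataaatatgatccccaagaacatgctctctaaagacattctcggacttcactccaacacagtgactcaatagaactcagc
Cxcl10: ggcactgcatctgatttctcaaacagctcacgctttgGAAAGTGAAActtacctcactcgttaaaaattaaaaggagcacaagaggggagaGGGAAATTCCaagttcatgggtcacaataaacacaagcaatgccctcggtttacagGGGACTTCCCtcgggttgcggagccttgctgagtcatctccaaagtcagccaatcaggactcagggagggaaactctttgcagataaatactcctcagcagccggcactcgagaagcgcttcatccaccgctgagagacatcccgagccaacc
In Cxcl10, the interferon-stimulated response element match GAAAGTGAAA spans bases 213 to 204 before the start, and the kappaB matches GGGAAATTCC and GGGACTTCCC span bases 159 to 150 and 103 to 94. The Cxcl9 window holds no match to these letters or to TTCNNNGAA, the gamma-activated site, which says only that these letters are not in this window. Of 32851 RefSeq promoter windows of this length, 3.44% held the interferon-stimulated response element, 8.3% the gamma-activated site and 4.51% the kappaB consensus. Among the 41 members with a promoter, 3 held the interferon-stimulated response element (Ccl19, Cxcl10 and Cxcl14), of which Cxcl10 alone was called. A match describes the letters and does not show binding.

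Cxcr3, the receptor of these ligands on T and NK cells, had 2.79, 2.86, 2.37 and 1.15 FPKM in KO libraries 1 to 4, against 2.85, 3.36, 2.92 and 2.19 FPKM in control libraries 1 to 4. The groups overlapped, and the log2 fold change was -0.29 ± 0.29 (edgeR adjusted p = 0.556). In whole tissue, fewer cells of a type and less RNA per cell cannot be told apart, so marker lists are given beside the results. T cell markers summed to 12.7 to 23.8 FPKM in KO libraries, against 19.1 to 26.6 FPKM in controls, and none of 7 passed the test (edgeR; 0 of 7 also at an unadjusted p under 0.05). The 6 NK cell markers summed to 37.7 to 109.7 FPKM in KO libraries, against 60.6 to 92.2 FPKM in controls, and none of them passed either (0 of 6 at an unadjusted p under 0.05). Nkg7 made up most of each NK sum, at 32.4 to 99.2 FPKM in KO libraries, against 51.9 to 81.2 FPKM in controls. Its log2 fold change was 0.04, and the other 5 NK markers were fitted lower in KO, at -0.48 to -0.05. Macrophage and monocyte markers, from a main source of Cxcl9 in many tissues, summed to 498 to 675.5 FPKM in KO libraries, against 534 to 699 FPKM in controls, with 0 of 11 passing and 3 of 11 at an unadjusted p under 0.05. That sum mixed directions, with 8 of the 11 fitted lower in KO and 3 higher. Log2 fold changes were -0.79 for Adgre1, -0.43 for C1qa, -0.48 for C1qb and -0.43 for C1qc. The 3 higher were Ly6c2 (0.33), F13a1 (0.51) and Ms4a6c (0.03). Lower sums stood in KO for 6 dendritic cell markers (6.63 to 11.25 FPKM in KO, 11.8 to 13.6 FPKM in control, Zbtb46 called) and for 6 endothelial markers (54.8 to 74.0 FPKM in KO, 80.5 to 102.8 FPKM in control, 3 called). Over all genes, 10.3% passed the test, 5.03% were called lower in KO, and 28.1% stood at an unadjusted p under 0.05. No marker in these lists was at 0, and the part of the markers in the fall of Cxcl9 and Cxcl10 was not tested.

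**Figure D3:**
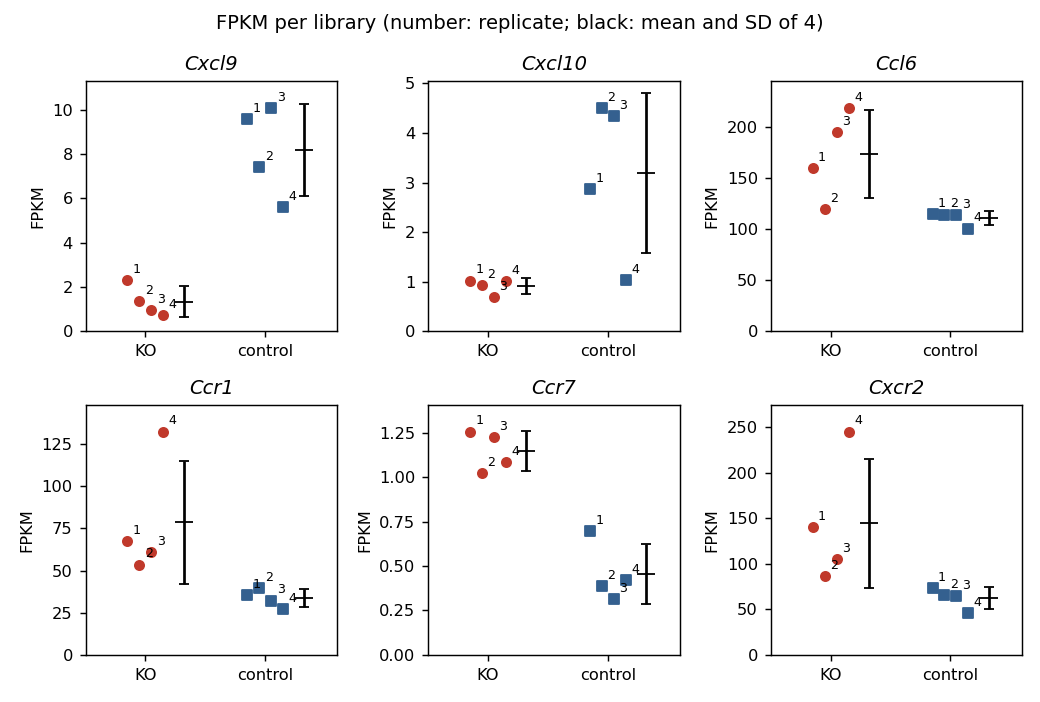
FPKM per library for the 4 called members and for Cxcr2 and Ccl6, KO left of control, with replicate numbers beside the points and the mean and SD of the 4 libraries in black. Cxcl9 and Cxcl10 lie lower in KO, Ccr1 and Ccr7 higher, and KO library 4 tops Ccr1, Cxcr2 and Ccl6.

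Neutrophils leave the marrow and enter tissue through Cxcr2. Its mouse ligands include the members Cxcl1, Cxcl2, Cxcl3 and Cxcl5, made by stroma, endothelium and myeloid cells. Cxcr2 had 141, 86.4, 105 and 245 FPKM in KO libraries 1 to 4, against 73.3, 65.9, 64.6 and 45.9 FPKM in control libraries 1 to 4. Every KO library was above every control library. The log2 fold change was 1.25 ± 0.34, with an edgeR adjusted p of 0.0506, just outside the threshold. Without KO library 4 it was 0.83 ± 0.21 (edgeR adjusted p = 0.0492). With 1 library left out, the edgeR adjusted p ran from 0.0334 to 0.1365, and 15 of 22 alternatives left Cxcr2 uncalled. Cxcr1, the related receptor, had 6.73, 2.07, 2.88 and 4.95 FPKM in KO libraries 1 to 4, against 2.77, 2.55, 2.21 and 2.30 FPKM in control libraries 1 to 4, and its groups overlapped (log2 fold change 0.79 ± 0.35, edgeR adjusted p = 0.184). Of 10 neutrophil markers, 6 passed the same test as higher in KO, against 5.31% of all genes, and none was at 0. The marker sums are given above, and the part of the markers in the level of Cxcr2 was not tested.

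Among the tested member ligands of Cxcr2, which leave out Ppbp, Cxcl2 showed 1 library apart. It had 12.7, 11.1, 1.53 and 103.2 FPKM in KO libraries 1 to 4, against 2.92, 10.5, 1.996 and 4.95 FPKM in control libraries 1 to 4. KO libraries 1 and 2 were slightly above the highest control, and KO library 3 was below the lowest. Its log2 fold change was 2.76 ± 1.14 (edgeR adjusted p = 0.156), and 0.76 ± 0.74 without KO library 4. Cxcl3 had 21, 8, 3 and 856 counts in KO libraries 1 to 4, against 11, 28, 6 and 6 counts in control libraries 1 to 4. Nearly all of its signal came from the same library, and its log2 fold change of 4.24 ± 1.75 (edgeR adjusted p = 0.155) became -0.32 ± 0.89 without it. Cxcl1 stayed low, at 0.0945 to 0.283 FPKM in KO libraries, against 0.199 to 0.453 FPKM in controls (log2 fold change -0.66 ± 0.43, edgeR adjusted p = 0.356). Cxcl5 was at 1.26 to 2.66 FPKM in KO libraries, against 1.49 to 3.13 FPKM in controls, and the 95% interval of its KO over control ratio ran from 0.627 to 1.65.

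Cxcl2 and Cxcl3, both high in KO library 4, lie near each other on chromosome 5, at 90903871 to 90905938 and at 90786103 to 90789600 on the plus strand. Their RefSeq promoters are shown for that reason, with kappaB matches in capitals, from the windows chr5:90903649-90903948 and chr5:90785851-90786150 of GRCm38.p6 on the plus strand.
Cxcl2: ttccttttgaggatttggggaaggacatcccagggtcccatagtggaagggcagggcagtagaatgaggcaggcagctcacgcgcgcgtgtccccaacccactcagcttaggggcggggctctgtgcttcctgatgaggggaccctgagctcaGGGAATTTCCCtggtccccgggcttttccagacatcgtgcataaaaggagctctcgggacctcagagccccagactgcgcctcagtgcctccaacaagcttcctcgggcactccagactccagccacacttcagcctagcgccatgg
Cxcl3: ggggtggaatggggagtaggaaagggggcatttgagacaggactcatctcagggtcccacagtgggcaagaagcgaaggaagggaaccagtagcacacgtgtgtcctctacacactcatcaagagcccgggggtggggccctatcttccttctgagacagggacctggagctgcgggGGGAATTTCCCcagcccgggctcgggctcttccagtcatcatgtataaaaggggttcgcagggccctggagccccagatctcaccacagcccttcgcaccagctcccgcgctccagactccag
Each holds a pair of kappaB matches, GGGAATTTCC and GGAATTTCCC, that overlap in all but 1 base, at bases 97 to 87 before the start in Cxcl2 and 73 to 63 in Cxcl3. The Cxcl1 promoter holds the same overlapping matches at bases 71 to 61, and Cxcl1 was not high in KO library 4 (0.250 FPKM). In all, 9 members held a kappaB match.

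**Figure D4:**
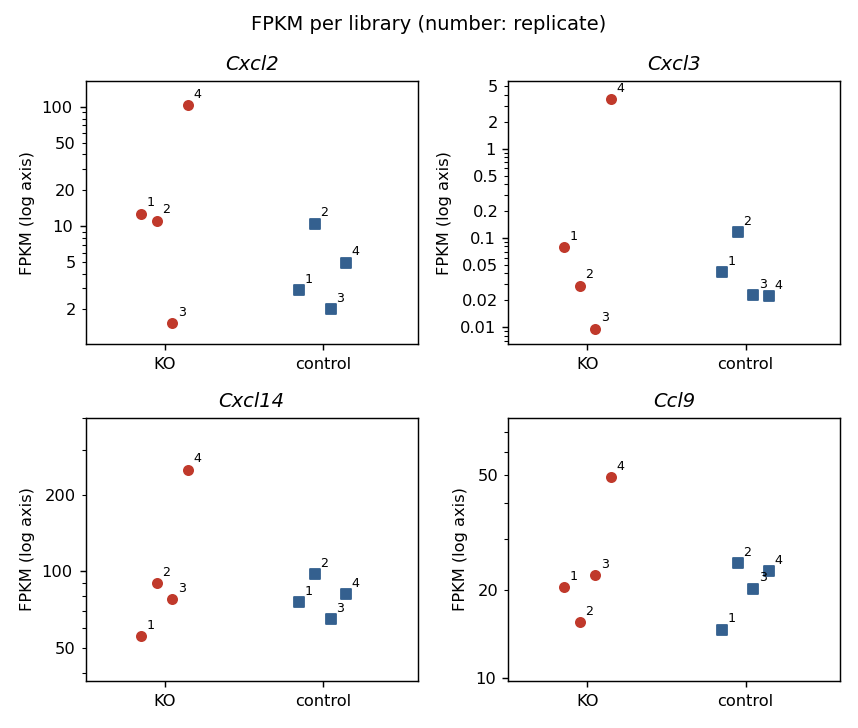
FPKM on log axes per library for Cxcl2, Cxcl3, Cxcl14 and Ccl9, KO left of control, with replicate numbers beside the points. KO library 4 is the highest of the 8 libraries in each panel. Apart from Cxcl3 in KO library 3, the other 3 KO libraries lie within the control range or just outside it. For Cxcl2 they are at 11.1 and 12.7 FPKM above all controls and at 1.53 FPKM below them. Cxcl3 in KO library 3 is at 0.0096 FPKM (3 counts), well below the lowest control at 0.0222 FPKM.

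Across the tested members, KO library 4 was the highest of the 8 for 11 and the lowest for 10, which is 46.7% of 45 and close to the 46.1% of all genes given above. Members it topped included Ccl4, Ccl6, Ccl9, Cxcl2, Cxcl3, Cxcl14, Ccr1, Ccr2 and Cxcr2. Members with their lowest value there included Cxcl9, Cxcr3, Cx3cr1, Ccr3, Ccl7, Ccl12 and Xcl1. KO library 3 was extreme for 31.1% of members, against 21.5% of all genes, and was the lowest for 11 members, among them Cxcl2, Cxcl3, Cxcl5, Ccl2, Ccl3, Ccl4 and Cx3cl1.

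The inflammatory CC ligands were led by Ccl6, a myeloid chemokine that binds Ccr1. Ccl6 had 159.8, 119, 194 and 218 FPKM in KO libraries 1 to 4, against 114, 114, 113 and 100.2 FPKM in control libraries 1 to 4. All KO libraries were above all controls, KO library 2 by little. Its log2 fold change was 0.68 ± 0.20 (edgeR adjusted p = 0.0605). DESeq2's Wald test gave an adjusted p of 0.0174, while 19 of 22 alternatives left Ccl6 uncalled. With 1 library left out, its edgeR adjusted p ran from 0.0198 to 0.157. Ccl9, another ligand of Ccr1 that osteoclasts make, had 20.6, 15.6, 22.5 and 49.0 FPKM in KO libraries 1 to 4, against 14.7, 24.8, 20.3 and 23.3 FPKM in control libraries 1 to 4. It was high in KO library 4 alone, with a log2 fold change of 0.42 ± 0.37 (edgeR adjusted p = 0.497), and of -0.08 ± 0.21 without that library.

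Ccl5, a ligand of Ccr1 and Ccr3 that T and NK cells make, had 13.7, 8.97, 12.1 and 12.1 FPKM in KO libraries 1 to 4, against 13.8, 14.5, 11.4 and 10.8 FPKM in control libraries 1 to 4. The groups overlapped, and the 95% interval of its KO over control ratio ran from 0.724 to 1.24. Ccl3 and Ccl4, inflammatory ligands from activated myeloid and lymphoid cells, had log2 fold changes of -0.06 ± 0.32 and 0.31 ± 0.52. Ccl4 stood at 10.1 FPKM in KO library 4 and at 2.19 to 3.01 FPKM in the other KO libraries, against 2.60 to 4.36 FPKM in controls, and its log2 fold change was -0.52 ± 0.27 without KO library 4. The monocyte attractants that bind Ccr2 had KO levels on the low side without passing the test. Their log2 fold changes were -0.66 ± 0.46 for Ccl2, -0.9999 ± 0.75 for Ccl7 and -0.74 ± 0.59 for Ccl12, with edgeR adjusted p of 0.389, 0.430 and 0.451. Ccl8 had a log2 fold change of -0.33 ± 0.44 and Ccl11, which attracts eosinophils, one of 0.17 ± 1.33 (edgeR adjusted p = 0.676 and 0.950). In all, 0 of 10 tested inflammatory CC ligands passed edgeR's test, against 10.3% of all genes. Ccl6 was the single one at an unadjusted p under 0.05, against 28.1% of all genes.

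Ccr1, the receptor of Ccl6, Ccl9 and Ccl5 on neutrophils, monocytes and osteoclast precursors, rose. It had 67.6, 53.6, 60.8 and 133 FPKM in KO libraries 1 to 4, against 35.3, 39.7, 32.2 and 27.1 FPKM in control libraries 1 to 4. No control reached the lowest KO library. Means were 78.6 ± 36.4 FPKM in KO and 33.6 ± 5.28 FPKM in control (SD, n = 4 each), with a log2 fold change of 1.27 ± 0.30 (edgeR adjusted p = 0.0351), or 2.42-fold with a 95% interval of 1.49 to 3.91. Without KO library 4 the change was 0.86 ± 0.15 (edgeR adjusted p = 0.0145), while leaving out KO library 1, KO library 3 or any 1 control ended the call (adjusted p up to 0.103). Of 10 neutrophil markers, 6 were called higher in KO by edgeR, against 5.31% of all genes, and 0 of 11 monocyte and macrophage markers were called. The part of these markers in the levels of Ccr1 and Ccl6 was not tested.

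Ccr1 lies in a cluster of receptor genes on chromosome 9, from 123962124 to 124113557, with Ccr3 and Ccr2, and these neighbours did not share a direction. Ccr2, which brings monocytes out of the marrow, had 8.26, 7.14, 8.64 and 15.03 FPKM in KO libraries 1 to 4, against 7.17, 5.07, 2.93 and 4.97 FPKM in control libraries 1 to 4. Control library 1 reached the lowest KO library, and the log2 fold change was 1.01 ± 0.30 (edgeR adjusted p = 0.0686). Ccr3, the eosinophil receptor, had 1.90 to 4.22 FPKM in KO libraries, against 2.18 to 5.87 FPKM in controls (log2 fold change -0.60 ± 0.32, edgeR adjusted p = 0.264).

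Ccr7, the receptor that takes dendritic cells and naive lymphocytes to lymph nodes, lies on chromosome 11 at 99144196 to 99155077 on the minus strand. It had 1.26, 1.02, 1.23 and 1.09 FPKM in KO libraries 1 to 4, against 0.698, 0.388, 0.314 and 0.422 FPKM in control libraries 1 to 4. All KO libraries were above all controls, and KO library 4 was close to the other KO libraries. Ccr7 rose by 1.37 ± 0.28 on the log2 scale (edgeR adjusted p = 0.0216), with means of 1.15 ± 0.113 FPKM in KO and 0.456 ± 0.168 FPKM in control (SD, n = 4 each). Without KO library 3 or any 1 of control libraries 2, 3 and 4 it was no longer called (edgeR adjusted p up to 0.0684). B cell markers, some of them from cells that carry Ccr7, summed to 19.3 to 25.8 FPKM in KO libraries, against 19.96 to 26.5 FPKM in controls. Of 7, 6 were fitted lower and 1 higher in KO. The 2 called lower, against 5.03% of all genes, were the scarce Vpreb1 and Igll1 (means of 0.150 and 0.124 FPKM in KO). The dendritic and T cell sums are given above, and the part of the markers in the level of Ccr7 was not tested. The ligands of Ccr7 had log2 fold changes below 0, with -1.21 ± 0.56 for Ccl19 and -0.93 ± 0.97 for Ccl21a (edgeR adjusted p = 0.201 and 0.579). Ccl21a was scattered, at 0.401, 3.79, 3.72 and 0.270 FPKM in KO libraries 1 to 4, against 2.07, 0.815, 8.43 and 3.71 FPKM in control libraries 1 to 4.

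Other homing ligands were at low levels. Ccl22, a ligand of Ccr4 from dendritic cells and macrophages, had 0.110 to 0.197 FPKM in KO libraries, against 0.0675 to 0.0951 FPKM in controls, with no overlap (log2 fold change 0.95 ± 0.41, edgeR adjusted p = 0.172). It had 27, 30, 34 and 18 counts in KO libraries 1 to 4, against 12, 15, 16 and 12 counts in control libraries 1 to 4. The control values were thus at or near the limit of 12 counts. Ccl25, the thymic and gut ligand of Ccr9, had 0.413 to 0.651 FPKM in KO libraries, against 0.510 to 0.618 FPKM in controls. Ccl27a and Ccl28, epithelial ligands of Ccr10, had log2 fold changes of -0.54 ± 0.28 and 1.27 ± 1.40. Exons of Ccl25 and Ccl27a overlap those of Elavl1 and Il11ra1 on the opposite strand, and whether counting used strand is not stated in those sources.

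Cxcl14, a chemokine of stroma and epithelium, had the second highest mean among the member ligands, below Ccl6. It had 55.7, 89.7, 77.9 and 251.2 FPKM in KO libraries 1 to 4, against 75.5, 97.6, 65.1 and 81.7 FPKM in control libraries 1 to 4. KO library 4 was far above the other 7 libraries, which overlapped (log2 fold change 0.63 ± 0.45, edgeR adjusted p = 0.403, and -0.09 ± 0.17 without that library). Cxcl13, which draws B cells through Cxcr5, had 1.41, 1.53, 2.34 and 5.80 FPKM in KO libraries 1 to 4, against 6.18, 4.95, 4.20 and 3.26 FPKM in control libraries 1 to 4. KO libraries 1 to 3 lay below the controls and KO library 4 within them, so its log2 fold change of -0.69 ± 0.48 (edgeR adjusted p = 0.390) became -1.39 ± 0.29 without KO library 4 (edgeR adjusted p = 0.0252). Cxcl16, the membrane-bound ligand of Cxcr6, had 2.03 to 4.99 FPKM in KO libraries, against 3.72 to 4.92 FPKM in controls, and overlaps Zmynd15 on the opposite strand.

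Cxcr4, the receptor that retains haematopoietic cells in marrow, had 104, 104, 137 and 97.3 FPKM in KO libraries 1 to 4, against 102, 87.1, 77.5 and 77.5 FPKM in control libraries 1 to 4. Control library 1 reached into the KO range, and the log2 fold change was 0.39 ± 0.13 (edgeR adjusted p = 0.0852). Its ligand Cxcl12, outside the rule, averaged 211 ± 45.2 FPKM in KO and 216 ± 25.7 FPKM in control (SD, n = 4 each), which gave -0.00 ± 0.14 on the log2 scale (edgeR adjusted p = 0.990). Cxcr5 had 0.367 to 0.772 FPKM in KO libraries, against 0.0437 to 0.365 FPKM in controls, which narrowly did not overlap (log2 fold change 0.97 ± 0.55, edgeR adjusted p = 0.288). Its exons overlap 110 bases of Bcl9l on the opposite strand. Bcl9l was at 2.17 to 5.34 FPKM in KO libraries, against 4.14 to 5.27 FPKM in controls. Cxcr6, on T and NK cells, had 0.461 to 1.20 FPKM in KO libraries, against 0.926 to 1.44 FPKM in controls (log2 fold change -0.86 ± 0.38, edgeR adjusted p = 0.175).

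Cx3cl1, a membrane-anchored ligand of endothelium and osteoblasts, had 2.13, 2.10, 0.112 and 0.604 FPKM in KO libraries 1 to 4, against 2.31, 3.50, 4.14 and 2.97 FPKM in control libraries 1 to 4. All KO libraries were below all controls, but KO libraries 1 and 2 were close to control library 1, and the log2 fold change of -1.38 ± 0.72 did not pass (edgeR adjusted p = 0.253). By edgeR, 5 of 8 osteoblast and osteocyte markers and 3 of 6 endothelial markers were called lower in KO, against 5.03% of all genes. The part of these markers in the level of Cx3cl1 was not tested. Cx3cr1, the receptor of Cx3cl1 on monocytes and macrophages, had 1.94, 1.36, 1.4997 and 0.262 FPKM in KO libraries 1 to 4, against 4.04, 0.748, 0.810 and 1.28 FPKM in control libraries 1 to 4. The single high control carried the sign, since the log2 fold change of -0.40 ± 0.67 (edgeR adjusted p = 0.739) became 0.42 without control library 1. Xcl1, made by NK and CD8 T cells, had 3.65, 0.630 and 0.963 FPKM in KO libraries 1 to 3 and no count in KO library 4, against 4.40, 6.74, 3.88 and 2.79 FPKM in control libraries 1 to 4 (log2 fold change -1.73 ± 1.01, edgeR adjusted p = 0.303). Its receptor Xcr1, on cross-presenting dendritic cells, was at 0.0226 to 0.149 FPKM in KO libraries, against 0.0717 to 0.187 FPKM in controls.

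The scarce receptors Ccr4, Ccr6, Ccr9 and Ccr10 did not pass the test. Ccr6, on B cells and some T cells, had 11, 0, 0 and 0 counts in KO libraries 1 to 4, against 12, 14, 23 and 16 counts in control libraries 1 to 4, so every KO value lay within the limit of 12 counts (edgeR adjusted p = 0.222). Ccr9 had 0.0441 to 0.111 FPKM in KO libraries, against 0.110 to 0.218 FPKM in controls (edgeR adjusted p = 0.160), and its exons overlap those of Slc6a20a on the opposite strand, which was at 0.368 to 1.35 FPKM in KO libraries, against 0.892 to 2.11 FPKM in controls. Ccr10 had a log2 fold change of -0.55 ± 0.41 and Ccr4 one of -0.09 ± 0.51. For the 5 members below the filter, two-sided exact permutation tests of log2 FPKM with a pseudocount of 0.5 gave p from 0.143 (Ccl21b) to 1, and 0.714 or more after Benjamini-Hochberg adjustment over the 5. The smallest p this design allows is 0.0286. Ccl21b had 0, 22, 38 and 7 counts in KO libraries 1 to 4, against 0 counts in each control library.

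Genes of the wider chemokine system, which the naming rule left out, gave 0 higher and 2 lower calls among 11, against 5.31% and 5.03% of all genes. Ackr3, the scavenger receptor of Cxcl12, fell to 10.9 ± 3.03 FPKM in KO, against 23.1 ± 6.99 FPKM in control (SD, n = 4 each; log2 fold change -1.04 ± 0.27, edgeR adjusted p = 0.0443). Rarres2, which encodes the attractant chemerin, had a log2 fold change of -0.60 ± 0.15 (edgeR adjusted p = 0.0450). With 1 library left out, the list gave 0 or 1 lower call. The platelet chemokines Pf4 and Ppbp were abundant, at 318 ± 72.0 and 421 ± 109.5 FPKM in KO, against 348 ± 92.4 and 557 ± 155.8 FPKM in control, and did not pass (log2 fold change -0.09 ± 0.21 and -0.37 ± 0.22).

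Of 40 genes for proteins that carry or end a receptor's signal, 18 were higher and 2 lower in KO by edgeR, against 5.31% and 5.03% of all genes, and their median was 0.49 on the log2 scale. Arrb2, the beta-arrestin that uncouples and internalises receptors, had 194.9, 198.6, 235.6 and 195.8 FPKM in KO libraries 1 to 4, against 123, 104.7, 89.6 and 97.5 FPKM in control libraries 1 to 4. The groups were far apart, and KO library 4 was like the other KO libraries (log2 fold change 1.02 ± 0.11, edgeR adjusted p = 0.00357). Grk6, a kinase that marks receptors for arrestin, averaged 40.5 ± 3.70 FPKM in KO and 23.7 ± 3.73 FPKM in control (SD, n = 4 each; log2 fold change 0.81 ± 0.11, edgeR adjusted p = 0.00795). Fgr, a Src-family kinase that acts below neutrophil chemokine receptors, rose by 1.04 ± 0.15 on the log2 scale (edgeR adjusted p = 0.00845).

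Among the genes of that list lower in KO was Wasl. This broadly expressed activator of actin branching had 4.24, 4.74, 4.03 and 3.01 FPKM in KO libraries 1 to 4, against 7.06, 7.07, 5.97 and 7.70 FPKM in control libraries 1 to 4, with no overlap (log2 fold change -0.77 ± 0.12, edgeR adjusted p = 0.0113). Fgr and Arrb2 are known to be expressed by neutrophils, whose markers were higher in KO as given above, and the part of the markers was not tested. The count higher in KO ran from 5 to 19 with 1 library left out, was 13 without control library 3 and KO library 4, and was 0 without control libraries 3 and 4.

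**Figure D5:**
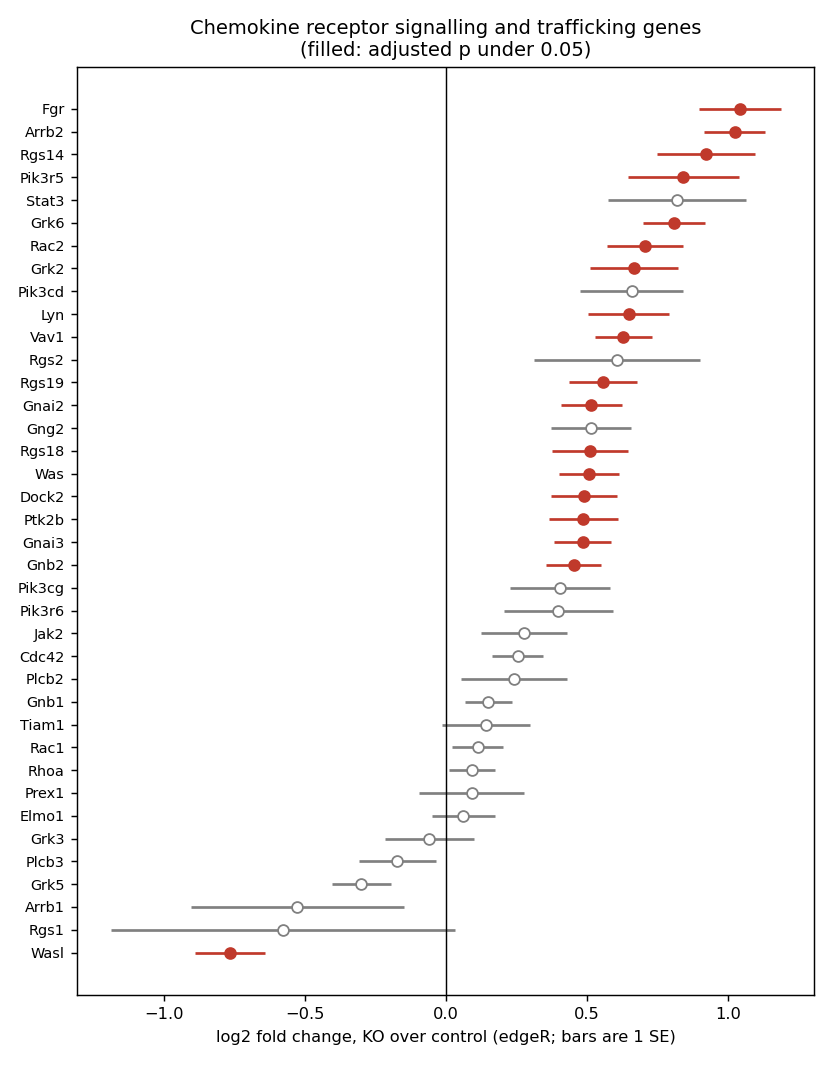
Log2 fold changes, KO over control, from edgeR for 38 genes of chemokine receptor signalling and trafficking, with bars of 1 standard error and filled symbols where the adjusted p is under 0.05. Of these genes 17 are filled to the right of 0, led by Fgr and Arrb2, and Wasl is filled to the left.

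Proteins that trim chemokines or present them on cell surfaces numbered 14, of which 5 were higher and 2 lower in KO by edgeR, against 5.31% and 5.03% of all genes, and the median over the list was 0.39 on the log2 scale. The 5 were the granule enzymes Ctsg, Prtn3, Elane, Mmp8 and Mmp9, all products of neutrophils or their precursors that can cleave chemokines. Neutrophil markers were also higher in KO, by the sums given above, and their part in these 5 was not tested. Ctsg averaged 367 ± 61.8 FPKM in KO and 222 ± 29.6 FPKM in control (SD, n = 4 each; log2 fold change 0.75 ± 0.13, edgeR adjusted p = 0.0124). Mmp8 averaged 492 ± 156 FPKM in KO and 234 ± 29.9 FPKM in control (log2 fold change 1.11 ± 0.22, edgeR adjusted p = 0.0206). The 2 lower were Ext1 and Ext2, which build the heparan sulphate chains that hold chemokines, with log2 fold changes of -0.65 ± 0.17 and -0.38 ± 0.10 (edgeR adjusted p = 0.0455 and 0.0454). With 1 library left out, 2 to 5 of the list were higher and 0 to 2 lower.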

How the data were processed

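Cortical bone RNA of 4 KO and 4 control libraries was compared. Total RNA was extracted with Trizol, and libraries were sequenced on a NovaSeq instrument (Illumina), per the labels' protocols. In the single table that the authors deposited, each gene has estimated counts and FPKM values by library. Per the submitters' processing notes, the tools were HISAT2 2.0.4, StringTie 1.3.4d and DESeq2 and the build was GRCm38, with no roles stated. The counting program, strand setting and filters were not given in the sources used here. No deposited estimated count was altered by rounding, since all were whole. Low counts pile up at 4 (7854 values of 4, 2724 of 3 and 1566 of 5 in the table), so 1 fragment was taken as about 4 counts, an approximation, and 3 fragments, 12 counts, as the limit of measurement, which covers counting error only. In the deposited FPKM columns, 0.0001 stands for a count of 0.

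Counts were tested with the quasi-likelihood test of edgeR 4.0.16 (R 4.3.3; TMM, filterByExpr with min.count 10, two-sided, no covariates, all 8 libraries), with Benjamini-Hochberg adjustment over 20152 genes and a threshold of 0.05; the SE is the log2 fold change divided by the root of F. DESeq2 1.42.0, limma 3.58.1, other scalings and filters, and libraries left out were alternatives. The fit was tested on simulated data. All 8 libraries were mapped by column name, 0 columns of sample values were left unused, and no pair of libraries agreed within sampling noise (smallest chi-square per degree of freedom 90.3). Of 58 members, 51 had the same coordinates in GENCODE M21. The replicate numbers in the titles did not pair the libraries (correlations of same-numbered deviations 0.11, -0.17, 0.09 and -0.06).

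Named members were those past the threshold, those with a mean of at least 1 FPKM in either group and no overlap of the groups, and the 2 highest of each role list with at least 1 FPKM, 18 in all; in the pathway lists, up to 4 with the smallest p were named. The other members described, and Elane, Ext1, Ext2 and Wasl, were chosen after their values were seen. Some genes counted among the members and lists are not reported here by name or drawn. The members and lists were chosen with earlier results of these data known. Fits without 2 libraries (control 3 with KO 4, and control 3 with control 4) were added after seeing the data.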

Additional observations from a re-analysis of the deposited data

Results flagged for a closer look

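In 3 of the 36 groups of 4 libraries tested, among the named members, 1 library stood far from the other 3 by Dixon's test at the 95% level, which chance alone flags in about 1 of 20 groups. Cxcl2 had 103.2 FPKM in KO library 4, against 1.53 to 12.7 FPKM in the other 3 KO libraries. Cx3cr1 had 4.04 FPKM in control library 1, against 0.748 to 1.28 FPKM in the other 3 control libraries. Ccl6 had 100.2 FPKM in control library 4, the lowest of a narrow group whose other values were 113 to 114 FPKM.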

How the results depend on the processing

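Across 22 other settings, 346 values of single members kept their direction and side of the threshold, 30 lost the call, 12 gained it and 18 changed sign. Most of the values kept belong to members not called in the main test, and only the 4 called members could lose a call. Ccr1 kept its call in 14 of the 22 settings, Ccr7 in 15, Cxcl9 in 21 and Cxcl10 in 8. Of members higher in KO (2 in the main test), DESeq2 called 6, counts divided by 4 gave 4, the replicate block 0, the fit without control 3 and KO 4 gave 1, that without control 3 and control 4 gave 0, and leaving out 1 library gave 0 to 4. Of members lower in KO (2), limma at each of the 3 pseudocounts, no filter on low counts, the replicate block, and the fit without control 3 and KO 4 each gave 1, the fit without control 3 and control 4 gave 0, and leaving out 1 library gave 1 to 3. Of pathway list genes (23 higher and 6 lower), the replicate block and the fit without control 3 and control 4 called 0 and 0, library totals alone and limma gave 3 lower, no filter gave 1 lower, and leaving out 1 library gave 7 to 24 higher and 1 to 4 lower. The replicate block left 56 calls among all genes, against 2083, with Cxcl9 the member kept (adjusted p = 0.0481); the replicate numbers do not pair the libraries, and 1 of the 4 KO libraries correlated best with its own number. Counting error and 4 libraries per group limit the members near 12 counts. The causes of these shifts were not tested, and some of these fits have fewer libraries or fewer residual degrees of freedom.

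Among the 18 named members, signs changed for these log2 fold changes. Of the others, Cxcl3 and Ccl4 were 4.24 and 0.31 in the main test and -0.32 and -0.52 without KO 4. Cxcl5 (0.0246 in the main test) was -0.0152 with library totals alone, -0.0171, -0.0139 and -0.0116 with limma at pseudocounts of 0.1, 0.5 and 1, -0.213 without control 3 and KO 4, -0.0729 without control 3 and control 4, and -0.120 to 0.222 with 1 library left out. With 1 library left out, Ccl9 ran from -0.0784 to 0.621, Cxcl14 from -0.0950 to 0.874, and Cx3cr1 from -0.684 to 0.419. Without control 3 and KO 4, Ccl9 was -0.0190, Cxcl14 was -0.118 and Ccl21a was 0.324, and without control 3 and control 4, Ccl21a was 0.548. The difference of mean log2 FPKM of Ccl19-ps1, KO minus control, was 0.0114 with a pseudocount of 0.5 and -0.00667 with a pseudocount of 1.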
